A study of Mus musculus with 6 samples.

Results

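Interferon-inducible GTPases are resistance proteins that cells make in response to interferons and that act inside the cell. The genes described here are 10 rows of a mouse liver RNA table, 5 guanylate binding proteins (GBPs: Gbp2, Gbp3, Gbp6, Gbp7 and Gbp11) and 5 immunity-related GTPases (IRGs: Irgm1, Irgm2, Igtp, Iigp1 and Tgtp1), out of 30889 genes. They were selected on the gene name, from a list drawn up with results of the same comparison known. All 10 were in the table and all 10 passed the filter on low counts. Because the comparison was known when they were chosen, their differences between groups are described without a test.

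The livers came from mice treated by mouth for 14 days, 3 libraries from mice given a water extract of the herb Emilia sonchifolia (extract) and 3 from mice given phosphate buffered saline (control). The sources used here do not state strain, sex, age or dose. Nor do they say whether the libraries come from different animals. Every adjusted p-value below therefore sets the group difference against the spread between these libraries, which may in part be technical.

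GBPs are large GTPases of the dynamin superfamily that assemble as a coat on the membranes of vacuoles holding parasites or bacteria and on bacteria in the cytosol. IRGs are smaller GTPases with the same targets, and fall into effectors, which load onto the vacuole, and regulators of the Irgm group, which sit on the cell's own membranes and keep the effectors inactive there. Both families answer to interferon gamma and to type I interferon, through gamma activated sites (GAS) and interferon-stimulated response elements (ISRE) in DNA. In the mouse liver the effector Iigp1 is also known to be made without infection, from a promoter of its own.

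The promoters show which of these letters stand next to each gene. RefSeq promoter sequences (GRCm38.p6, 250 bases before to 50 after the start) were matched by symbol for 7 of the 10 genes: Gbp2, Gbp3, Gbp7, Irgm1, Irgm2, Igtp and Tgtp1. The ISRE core GAAANNGAA and the GAS core TTCNNNGAA were searched on both strands. All 7 promoters held the ISRE core, which 9.76% of 27025 genes with a promoter held. Of the 7, 4 also held the GAS core, against 9.55% of all genes for the GAS core and 1.42% for both together. The matches are descriptions of letters, not of binding. The stretch around the matches upstream of the RefSeq start is given for each gene, 5′ to 3′ on the strand of the gene, with the matched cores in capitals. For Irgm1, Irgm2 and Tgtp1 this stretch lies inside the gene span of the deposited table, and that of Gbp2 runs across its start. The stretches of Gbp2 and Irgm1 meet annotated exons of the same gene. These are thus not upstream of the whole annotated gene. Gbp2, Gbp3 and Gbp7 carry the ISRE core as its reverse complement.
Gbp2, chr3:142620598-142620620, plus strand: ttttagtTTCACTTTCactgtct
Gbp3, chr3:142559993-142560021, plus strand: acacagtTTCAGTTTCTATTTCccagatc
Gbp7, chr3:142530205-142530317, plus strand: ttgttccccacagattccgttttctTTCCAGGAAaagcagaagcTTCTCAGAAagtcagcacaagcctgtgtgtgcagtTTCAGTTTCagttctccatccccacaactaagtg
Irgm1, chr11:48871429-48871457, minus strand: gtttcaaGAAATAGAAACCGAAactgatt
Irgm2, chr11:58214877-58214946, plus strand: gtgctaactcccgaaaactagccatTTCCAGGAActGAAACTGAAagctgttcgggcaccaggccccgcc
Igtp, chr11:58199486-58199555, plus strand: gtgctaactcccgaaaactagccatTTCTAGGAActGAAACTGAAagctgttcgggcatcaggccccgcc
Tgtp1, chr11:48992290-48992359, minus strand: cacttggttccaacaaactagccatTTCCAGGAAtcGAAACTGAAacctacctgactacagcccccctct

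Irgm2, Igtp and Tgtp1 share one layout, a GAS core followed 2 bases later by an ISRE core. The GAS core began 75 bases before the RefSeq start of Irgm2, 45 before that of Igtp and 88 before that of Tgtp1. The windows of Irgm2 and Igtp, which are neighbours on chromosome 11, were alike at 68 of 70 bases (97.1%). That of Tgtp1 was alike with Irgm2 at 44 of 70 bases (62.9%) and with Igtp at 42 (60%). Gbp3 and Irgm1 each held a pair of overlapping ISRE cores, and a second RefSeq start of Gbp3 held neither motif. In Gbp7 the pair of GAS cores lay further upstream, with the first 106 bases and the ISRE core 52 bases before the start. Among the other genes of these families, 9 were matched in the same table, of which 6 held the ISRE core and 4 the GAS core.

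Messenger RNA of 8 of the 10 GTPases was higher in the livers of mice given the extract, by 1.29-fold for Igtp up to 6.65-fold for Gbp11, and in these 8 no extract library overlapped a control library. Gbp2 and Tgtp1 overlapped between the groups. Levels are given in FPKM, the deposited value scaled for gene length and sequencing depth. Fold changes and their standard errors come from one edgeR quasi-likelihood fit to the estimated counts of all genes. That fit also rescales the libraries, which the FPKM values do not, so fold changes differ somewhat from ratios of mean FPKM. For Igtp, limma on log2(FPKM + 0.5) gave a log2 value of 0.30, against 0.37 in the edgeR fit. Overlap between the groups was judged on FPKM as deposited. Across all 18071 genes tested, the share without overlap and higher with the extract was 17.7%. At an adjusted p of 0.05 (edgeR, Benjamini-Hochberg), 14.2% of genes were called higher and 12.8% lower. By that threshold 8 of the 10 were called higher and 0 lower, and since the list was made with this comparison known, nothing is read from those counts. The median log2 fold change was 0.61 over the 10 genes and -0.02 over all genes tested.

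**Figure D1:**
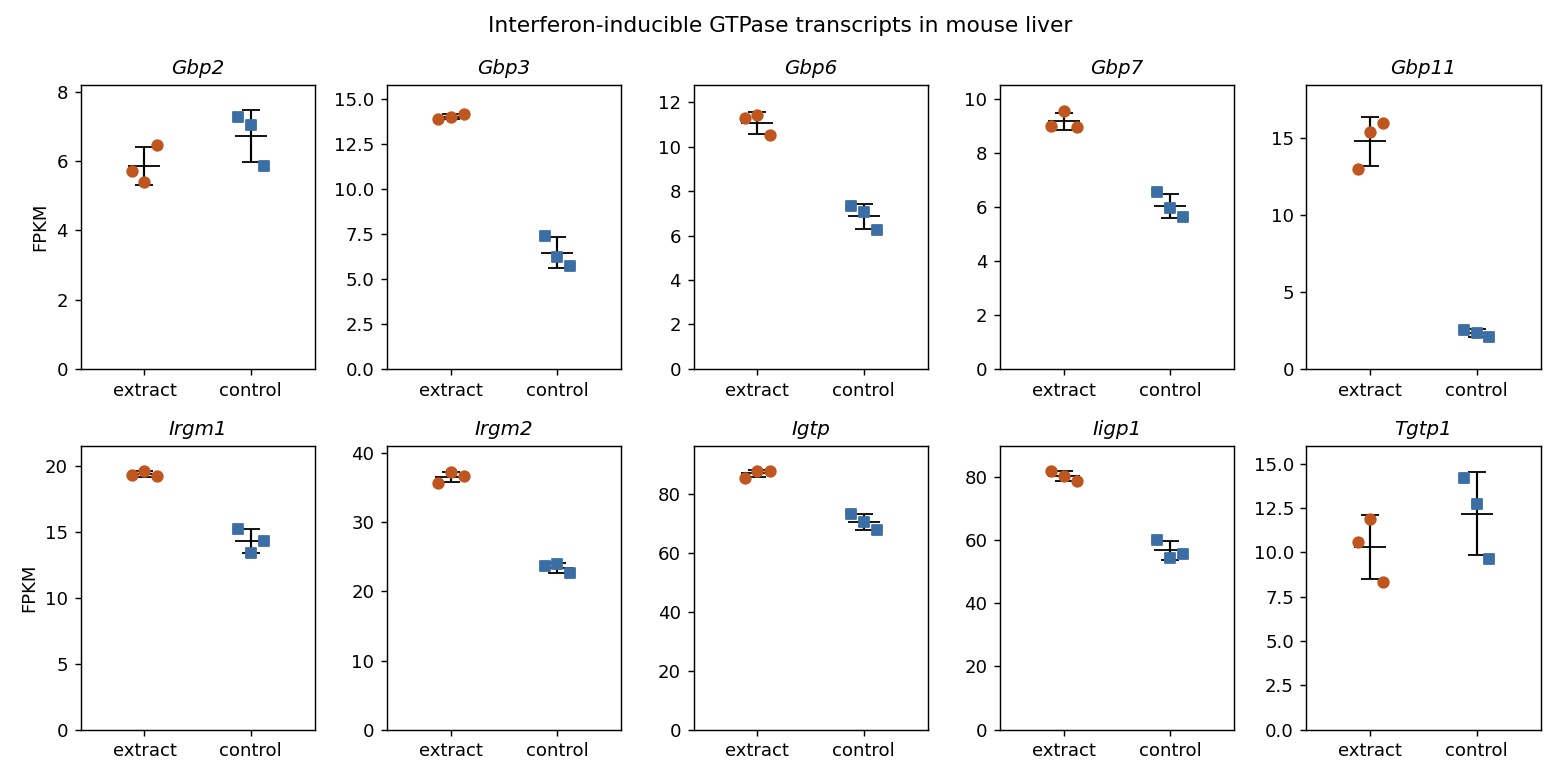
FPKM (linear axis from 0) of each of the 10 GTPases, with 1 point per liver library, 3 in the extract group and 3 in the control group, and lines at the mean ± SD. In 8 panels every extract point lies above every control point, and in the panels of Gbp2 and Tgtp1 the groups overlap.

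Summed over the 10 genes, the level was 286, 292 and 287 FPKM in extract libraries, against 217, 203 and 195 FPKM in control libraries. The mean sum was 288 ± 3.68 FPKM with the extract and 205 ± 11.1 FPKM in control (SD, n = 3 each), a ratio of 1.40. The GBPs made up the smaller share of it, at 54.9 ± 1.79 FPKM in extract libraries and 28.4 ± 2.78 FPKM in control libraries. The IRGs stood at 233 ± 3.19 FPKM in extract libraries and 177 ± 8.39 FPKM in control libraries. In bulk tissue a change in the number of cells that make a transcript and a change in the transcript per cell cannot be told apart.

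For these 10 genes, extract libraries varied less among themselves than control libraries, and the share of all genes with such a difference was not counted. The coefficient of variation was lower in the extract group for all 10 genes, with a median of 2.76% in extract and 7.87% in control. The spread was widest for Tgtp1, at 17.5% in extract and 19.2% in control. One control library stood lowest and another highest for most of the genes: control 3 held the lowest control value of 8 genes and control 1 the highest of 9. Igtp and Iigp1 had the highest levels of the 10 genes in every library.

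Among the GBPs, Gbp11 had the largest difference. Gbp11 (ENSMUSG00000092021, chr5:105323042-105346472, minus strand) is annotated in GENCODE M21 as a polymorphic pseudogene, a gene that is intact in some strains and disrupted in others. It read 13.0, 15.4 and 16.0 FPKM in extract libraries, against 2.56, 2.33 and 2.06 FPKM in control libraries. The lowest extract library stood far above the highest control library. The means were 14.8 ± 1.56 FPKM in extract and 2.32 ± 0.251 FPKM in control, a log2 fold change of 2.73 ± 0.11 (SE). Behind them lie 2250 to 2903 estimated counts per extract library and 352 to 463 per control library. Of all 100-base windows in its annotated transcripts, 5.13% also occur in another gene, chiefly Gbp4.

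Gbp3 (ENSMUSG00000028268, chr3:142560026-142573209, plus strand), one of the GBPs that coat parasite vacuoles in mouse cells, came next. It read 13.9, 14.0 and 14.2 FPKM in extract libraries, against 7.42, 6.20 and 5.75 FPKM in control libraries. The extract libraries lay close together and all above the highest control library. Gbp3 averaged 14.0 ± 0.179 FPKM in extract and 6.45 ± 0.863 FPKM in control, a 2.26-fold difference (log2 1.18 ± 0.09).

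Gbp6 (ENSMUSG00000104713, chr5:105270702-105293696, minus strand) belongs to the same chromosome 5 cluster as Gbp11. It read 11.3, 11.4 and 10.5 FPKM in extract libraries, against 7.32, 7.05 and 6.23 FPKM in control libraries. The groups did not overlap, with means of 11.1 ± 0.488 FPKM in extract and 6.87 ± 0.566 FPKM in control (log2 0.75 ± 0.06, 1.68-fold). The values of this gene are uncertain, as described with its copies below.

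Gbp7 (ENSMUSG00000040253, chr3:142530342-142550149, plus strand), which in mouse macrophages is known to work with the oxidase that kills bacteria, was 1.58-fold higher. Its libraries read 8.99, 9.55 and 8.98 FPKM with the extract, against 6.54, 5.95 and 5.65 FPKM in control. The lowest extract library was above the highest control library. The means were 9.17 ± 0.323 FPKM in extract and 6.05 ± 0.453 FPKM in control, a log2 difference of 0.66 ± 0.06. Gbp7 shares 637 exon bases (11.3%) on the same strand with Gm43802, and reads there could be counted for either gene.

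Gbp2 (ENSMUSG00000028270, chr3:142620602-142638008, plus strand) carries a lipid anchor and is among the first GBPs to reach the vacuole of the parasite Toxoplasma. It read 5.71, 5.38 and 6.46 FPKM in extract libraries, against 7.28, 7.03 and 5.87 FPKM in control libraries. One extract library stood above the lowest control library, so the groups overlapped. Its log2 fold change was -0.14 ± 0.10, with means of 5.85 ± 0.558 FPKM in extract and 6.73 ± 0.753 FPKM in control. None of its 100-base windows occurs in another gene.

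The regulatory IRGs were all higher with the extract. Igtp (also called Irgm3; ENSMUSG00000078853, chr11:58199556-58207591, plus strand) sits on the endoplasmic reticulum and on lipid droplets. Its level was the highest of the 10 genes in both groups, at 85.4, 87.6 and 87.6 FPKM in extract libraries, against 73.0, 70.5 and 67.8 FPKM in control libraries. The difference was the smallest of the 8, 1.29-fold (log2 0.37 ± 0.04), and still without overlap. The means were 86.9 ± 1.27 FPKM in extract and 70.4 ± 2.60 FPKM in control.

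Irgm2 (ENSMUSG00000069874, chr11:58199618-58222782, plus strand), a regulator found at the Golgi, read 35.7, 37.2 and 36.7 FPKM in extract libraries, against 23.7, 23.9 and 22.6 FPKM in control libraries. Both groups were tight, at 36.5 ± 0.731 FPKM in extract and 23.4 ± 0.725 FPKM in control, a 1.63-fold difference (log2 0.70 ± 0.04). Irgm2 and Igtp share 162 annotated exon bases on one strand, 8.01% of the exon bases of Igtp and 4.39% of those of Irgm2. Reads there could be counted for either gene.

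Irgm1 (ENSMUSG00000046879, chr11:48861968-48871683, minus strand), the regulator found on the Golgi, on mitochondria and on lysosomes, is needed by mice to control mycobacteria. It read 19.3, 19.6 and 19.2 FPKM in extract libraries, against 15.2, 13.4 and 14.3 FPKM in control libraries. The groups were apart, at 19.4 ± 0.222 FPKM in extract and 14.3 ± 0.904 FPKM in control (1.41-fold, log2 0.50 ± 0.06). It shares none of its 100-base windows with another gene.

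The effectors are Iigp1 and Tgtp1. Iigp1 (also called Irga6; ENSMUSG00000054072, chr18:60376027-60392634, plus strand) loads onto the Toxoplasma vacuole and helps to rupture it. It read 81.7, 80.4 and 78.6 FPKM in extract libraries, against 60.1, 54.4 and 55.6 FPKM in control libraries. The means were 80.2 ± 1.58 FPKM in extract and 56.7 ± 2.99 FPKM in control, with no overlap (1.48-fold, log2 0.56 ± 0.05). It was the most counted of the 10 genes, at 30581 to 31685 estimated counts per extract library and 20529 to 23318 per control library, and no 100-base window of it occurs elsewhere.

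Tgtp1 (also called Irgb6; ENSMUSG00000078922, chr11:48985327-48994172, minus strand), another effector of the vacuole, read 10.6, 11.9 and 8.35 FPKM in extract libraries, against 14.2, 12.7 and 9.60 FPKM in control libraries. The groups overlapped, with means of 10.3 ± 1.80 FPKM in extract and 12.2 ± 2.34 FPKM in control and a log2 fold change of -0.18 ± 0.16. This value turned round once its near-identical copy was counted with it.

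Tgtp1 and Tgtp2 lie in the same array on chromosome 11, and 70.3% of the 100-base windows of Tgtp1 also occur in Tgtp2. Of the windows of Tgtp2, 76.8% also occur in Tgtp1. Tgtp2 rose 2.68-fold with the extract (edgeR adjusted p = 0.000105), at 13.1, 15.0 and 11.3 FPKM in extract libraries, against 4.60, 5.02 and 5.70 FPKM in control libraries. Of the estimated counts of both genes together, Tgtp1 held 46.8%, 46.4% and 44.5% in extract libraries, against 77.1%, 73.4% and 64.7% in control libraries. The mean share of Tgtp1 was 45.9 ± 1.22% in extract and 71.7 ± 6.33% in control (SD, n = 3 each). The 2 genes summed held 4669, 5565 and 4061 estimated counts in extract libraries, against 3605, 4085 and 3017 in control libraries. In a fit with the copies summed, added after the data were seen, the log2 fold change of the sum was 0.48 ± 0.11, against -0.18 for Tgtp1 alone. The sources used here do not state how reads were divided between copies. The direction of Tgtp1 on its own is therefore uncertain, and so is the rise of Tgtp2 on its own.

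Gm12185, which overlaps Tgtp1 on the same strand by 223 exon bases, fell with the extract. It read 0.232, 0.120 and 0.110 FPKM in extract libraries, against 2.23, 1.87 and 0.824 FPKM in control libraries (log2 fold change -3.34 ± 0.43, edgeR adjusted p = 0.00102). Its counts were few, 42 to 84 in extract libraries and 292 to 771 in control libraries.

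Gbp6 has the same difficulty as Tgtp1. The annotated gene Gm43302 spans both Gbp6 and Gbp10, and 59% of the 100-base windows of Gbp6 also occur in Gm43302 and 36.3% in Gbp10. Of the windows of Gbp10, 63.6% also occur in Gm43302 and 60.1% in Gbp6, so the values of Gbp10 are uncertain too. Gbp10 rose 2.53-fold (edgeR adjusted p = 0.000341), at 22.4, 21.6 and 22.4 FPKM in extract libraries, against 11.1, 9.21 and 7.12 FPKM in control libraries. Gm43302 read 7.44 ± 2.09 FPKM in extract and 5.85 ± 1.18 FPKM in control and did not pass the threshold (edgeR adjusted p = 0.187). The 3 genes summed held 11679, 12040 and 12963 estimated counts in extract libraries, against 7195, 7418 and 5469 in control libraries. For that sum the log2 fold change was 0.93 ± 0.10, against 0.75 for Gbp6 alone, and both were higher with the extract. The share of Gbp6 in the sum was 35.9 ± 2.94% in extract and 40.6 ± 3.16% in control.

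**Figure D2:**
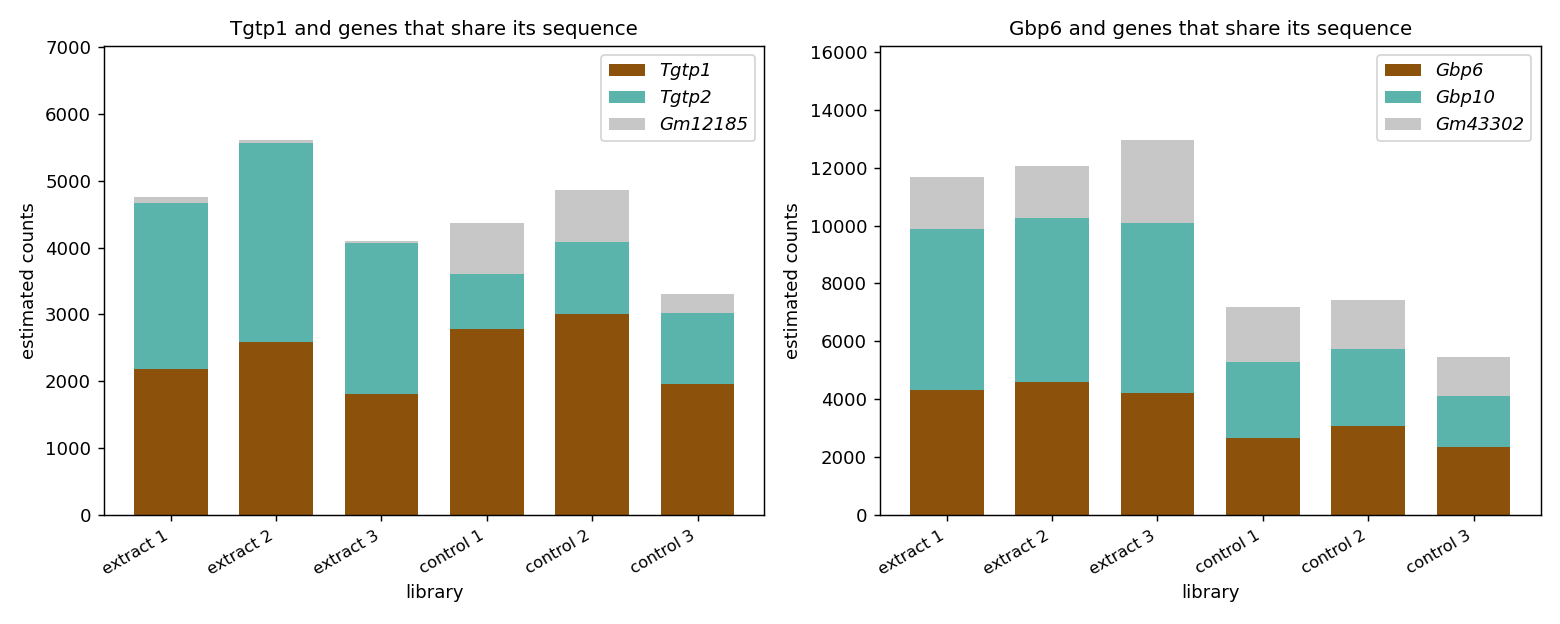
Stacked bars of estimated counts per library for Tgtp1 with the genes that share its sequence (left) and for Gbp6 with those that share its own (right), extract libraries left of control libraries. The Tgtp1 segment is 46.8% or less of the Tgtp1 and Tgtp2 counts in extract libraries and 64.7% or more in control libraries, and the bars of the Gbp6 group are all higher with the extract.

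The order of the 10 levels was alike at the top in both groups and differed below. In extract libraries it ran Igtp, Iigp1, Irgm2, Irgm1, Gbp11, Gbp3, Gbp6, Tgtp1, Gbp7 and Gbp2. Neighbours in that order were apart in every library except Gbp11 and Gbp3, Gbp6 and Tgtp1, and Tgtp1 and Gbp7. In control libraries it ran Igtp, Iigp1, Irgm2, Irgm1, Tgtp1, Gbp6, Gbp2, Gbp3, Gbp7 and Gbp11. There Irgm1 and Tgtp1 overlapped, as did each neighbouring pair from Gbp6 to Gbp7. Gbp11 was thus last in control livers, while in extract livers it stood level with Gbp3, behind the 4 IRGs at the top.

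The Pearson correlation of each with the mean pattern of the 10 genes ran from 0.955 for Irgm1 to 0.989 for Gbp7 over the 6 libraries, while Gbp2 stood at -0.427 and Tgtp1 at -0.206. These values carry the group difference itself, and the mean holds the genes themselves, so they do not show that the genes moved together within a group. Among extract libraries Gbp11 was lowest in extract 1, where Iigp1 was highest. Outside all gene lists, the genes whose pattern was most like that mean were Ces2e (r = 0.9996), Mthfd1 (0.9990), Tstd3 (0.9981), Cyp2c29 (0.9976), Acaca (0.9972) and Rdh11 (0.9971). Ces2e read 43.7, 45.1 and 44.2 FPKM in extract libraries, against 32.6, 29.1 and 25.4 FPKM in control libraries. Such likeness was common, since 398 of the 4427 genes compared had an r over 0.95.

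By chromosome, the GTPases fall into a GBP cluster on chromosome 3, another on chromosome 5, 2 IRG arrays on chromosome 11 and 1 on chromosome 18. Neither cluster of GBPs moved as a block. On chromosome 3, Gbp7 and Gbp3 were higher, while their neighbours Gbp2b and Gbp5 fell, by 0.54 and 0.47 on the log2 scale (edgeR adjusted p = 0.00177 and 0.0238). Gbp5 is known to promote inflammasome assembly in mice. On chromosome 5, Gbp11, Gbp6, Gbp10 and Gbp9 (log2 0.53 ± 0.08) were higher, next to Gbp8 and Gbp4, which did not pass the threshold (log2 0.13 and -0.24). Gbp6 and Gbp10 share sequence, so the size of the rise in either is uncertain. Gbp2b, Gbp5, Gbp8 and Gbp9 are named here after their values were seen. In the distal array of chromosome 11, all 3 genes, Gm12250, Igtp and Irgm2, were higher.

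Of the 18 other genes of these families in the table, all tested, 6 rose and 4 fell, and 8 did not pass the threshold. Over all genes tested, 14.2% were called higher and 12.8% lower. Tgtp2 and Gbp10 are among the 6, and their values are uncertain because they share sequence with their copies. Those with the smallest p were Gm12250, Tgtp2, Gm4951, Gbp10, Gm4841 and Gm12185. Gm12250, for which RefSeq lists the synonym Irgb10 and which GENCODE M21 annotates as a processed pseudogene, rose to 19.0 ± 0.632 FPKM in extract libraries, against 9.94 ± 0.487 FPKM in control libraries (edgeR adjusted p = 4.29e-05). Gm4951, a neighbour of Iigp1, rose 1.77-fold, to 44.5 ± 0.537 FPKM in extract libraries, against 26.2 ± 2.64 FPKM in control libraries. Gm4841, in the same array, fell to 0.275 ± 0.0908 FPKM in extract libraries, against 1.70 ± 0.237 FPKM in control libraries (edgeR adjusted p = 0.000366). The median log2 fold change over the 18 was 0.04.

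**Figure D3:**
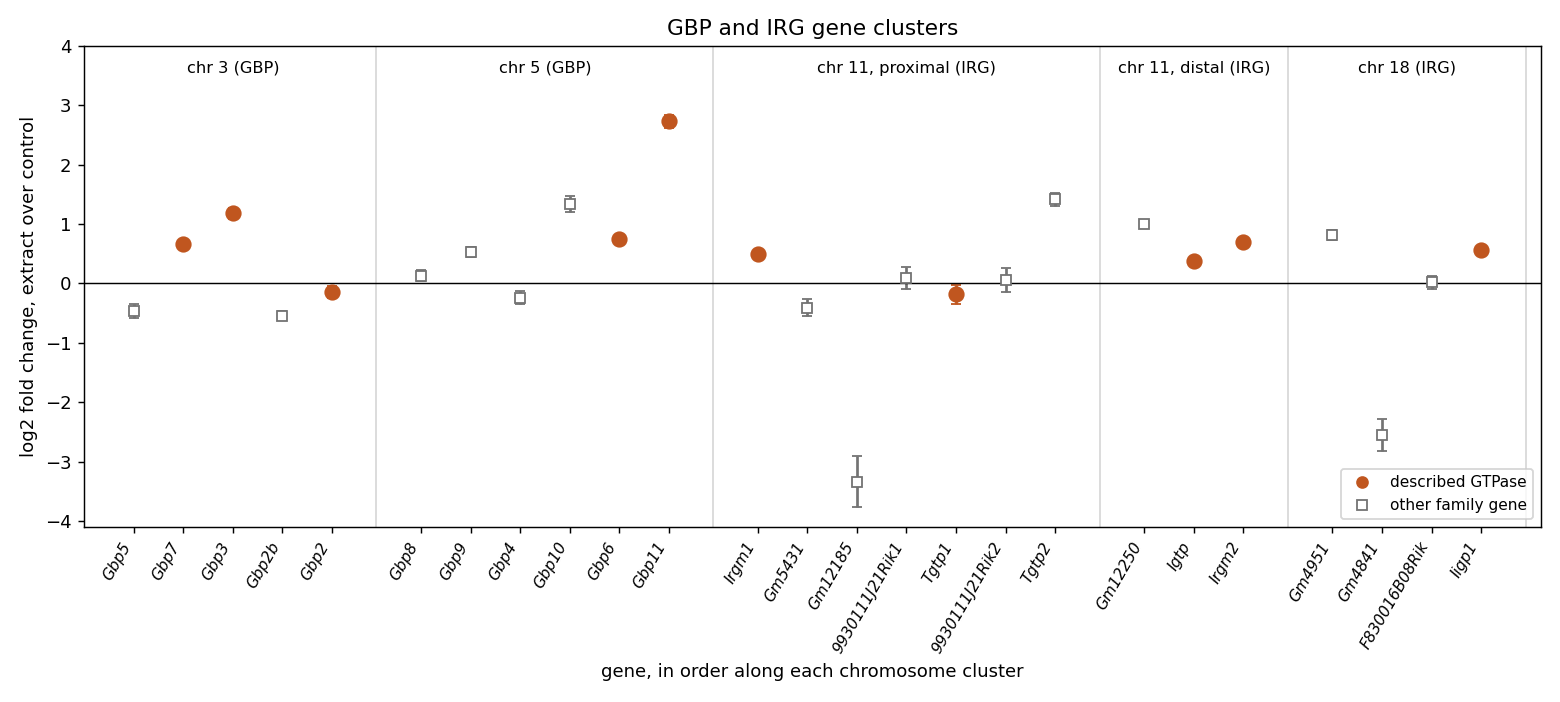
Log2 fold change, extract over control, with its standard error, for the 10 GTPases described (filled circles) and their relatives (open squares), in gene order within 5 chromosome clusters. Gbp11 is highest at 2.73, and higher and lower genes stand side by side in the clusters of chromosomes 3, 11 (proximal) and 18.

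Genes upstream of the GTPases were set beside them from lists by role. These lists, and those of targets and partners below, were also drawn up with earlier results of these data known. Their counts are thus descriptions, to be set beside the 14.2% of all genes tested that were called higher and the 12.8% called lower. The first list holds interferons and cytokines that raise them or act beside them, at levels from 0 to that of Il18. Ifng, which encodes interferon gamma, read 0, 0.103 and 0.116 FPKM in extract libraries, against 0.146, 0.141 and 0.0899 FPKM in control libraries. Of 15 ligand genes listed, 8 were in the table and 5 could be tested, of which 0 rose and 1, Il18, fell (6.81 ± 0.279 FPKM in extract and 9.32 ± 0.652 FPKM in control, edgeR adjusted p = 0.0200). None of the 5 was higher at an unadjusted p of 0.05 in edgeR or was called higher by DESeq2. Il15, Il27 and Tnf did not pass the threshold, at log2 values of -0.38, -1.24 and -1.14. A difference in Ifng was not detectable at this depth. The call of Il18 was lost without control 3, without extract 1, without extract 2 and without extract 3, each of which left 0 ligands called lower.

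Of the receptors, Ifngr1, the ligand-binding chain for interferon gamma, read 4.90, 4.62 and 5.67 FPKM in extract libraries, against 6.18, 6.42 and 6.88 FPKM in control libraries, and missed the threshold (log2 -0.30 ± 0.09, edgeR adjusted p = 0.0511). Of the 6 receptor genes 0 rose, also with 0 at an unadjusted p and 0 in DESeq2, and Il10rb fell (log2 -0.33 ± 0.10, edgeR adjusted p = 0.0358). Ifngr2, Ifnar1, Ifnar2 and Ifnlr1 stood at log2 0.14, 0.14, -0.08 and -0.47. Without extract 3 the list had 2 falls, and with any 1 of the other 5 libraries left out it had 0. Without extract 1 it had 1 rise.

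Among kinases and transcription factors, 4 of 12 rose and 2 fell. Irf7, a factor that amplifies the type I response, rose 1.76-fold to 29.9 ± 1.34 FPKM in extract libraries, against 17.8 ± 1.33 FPKM in control libraries (edgeR adjusted p = 8.85e-05). Irf9 and Jak1 rose by less, 1.15-fold and 1.16-fold (edgeR adjusted p = 0.0256 and 0.0354). Irf8, a factor of macrophages, B cells and dendritic cells, fell to 1.19, 1.27 and 1.14 FPKM in extract libraries, against 2.22, 2.52 and 2.18 FPKM in control libraries. Irf3 fell by 0.20 on the log2 scale. Irf1, which interferon gamma induces directly, read 8.38 ± 0.428 FPKM in extract and 8.21 ± 0.434 FPKM in control and did not pass the threshold (log2 0.09 ± 0.06), and neither did Stat2, Jak2, Tyk2, Batf2 and Cebpb. The 4 rises became 2 without control 2, extract 1 or extract 3, and the 2 falls became 1 without control 1, control 2, control 3 or extract 2.

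Of 11 genes listed as inhibitors of interferon signalling, 3 rose and 2 fell. Isg15, a ubiquitin-like protein, rose 2.88-fold to 33.4, 37.7 and 42.9 FPKM in extract libraries, against 13.1, 13.4 and 14.8 FPKM in control libraries. Usp18, which blocks the type I receptor, rose 1.91-fold and Trim24 1.77-fold (edgeR adjusted p = 0.00250 and 3.63e-05). Ptpn6 and Irf2 fell by 0.36 and 0.28 on the log2 scale (edgeR adjusted p = 0.00449 and 0.00924). Socs1, the feedback inhibitor that interferon gamma induces, read 0.243 ± 0.0314 FPKM in extract and 0.256 ± 0.0684 FPKM in control.

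The GTPases are targets of both interferon pathways, and the other targets were counted in a list for each. Both lists were made with earlier results of these data known, so their counts are descriptions. Of 30 genes listed as type I interferon targets, 19 rose and 3 fell, with a median log2 fold change of 0.63. Over all genes tested, 14.2% were called higher and 12.8% lower. The 6 with the smallest p were Herc6, Zbp1, Ifi44, Ifih1, Oas1a and Ifit1, which rose 2.05-fold, 2.43-fold, 2.81-fold, 2.26-fold, 1.84-fold and 3.29-fold. Ifit1, which binds foreign RNA, read 15.3, 15.3 and 15.8 FPKM in extract libraries, against 5.15, 5.68 and 3.90 FPKM in control libraries. Oas2, Ifit1bl1 and Epsti1 fell, Epsti1 close to the threshold (edgeR adjusted p = 0.0480), and without control 2 or any 1 extract library 1 of these falls was left.

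Of 25 genes tested as targets of interferon gamma, 3 rose and 8 fell, with a median of -0.11. Those that rose were Tapbp, Gch1 and Tap1, by 0.32, 0.40 and 0.30 on the log2 scale, and 1 such rise was left without extract 2 or extract 3. The 3 class II antigen presentation genes in the list fell: H2-Aa to 7.22 ± 0.244 FPKM in extract libraries, against 20.8 ± 0.524 FPKM in control libraries, and H2-Ab1 and Cd74 by 1.12 and 1.15 on the log2 scale. The chemokine Cxcl9, a standard readout of interferon gamma, fell to 5.52, 4.57 and 5.87 FPKM in extract libraries, against 12.1, 12.9 and 11.1 FPKM in control libraries (edgeR adjusted p = 0.000222). Type I interferon is also known to raise many genes of this list, so the lists do not part the pathways, and the difference between the lists was not tested.

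**Figure D4:**
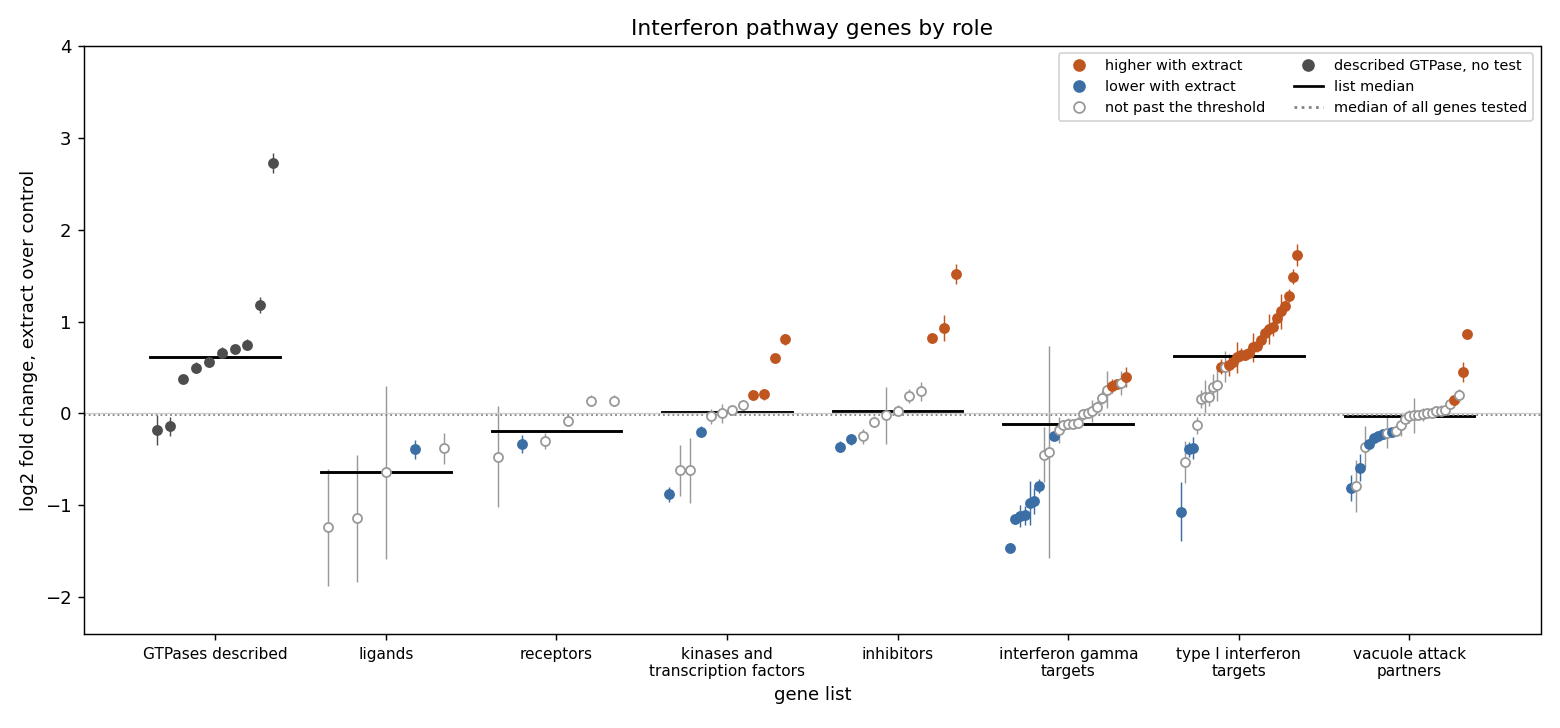
Log2 fold change, extract over control, with standard error, for every tested gene of 8 lists, with a bar at each list's median and a dotted line at the median of all genes tested. The medians stand at 0.61 for the GTPases described, 0.63 for type I interferon targets and -0.11 for interferon gamma targets. All lists were made with earlier results of these data known.

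Genes whose products work with the GTPases at the vacuole were counted as well, and 3 of 27 rose, 7 fell and 17 did not pass the threshold, with a median log2 fold change of -0.03. The shares over all genes tested were 14.2% higher and 12.8% lower. Rnf213, a ubiquitin ligase that marks bacteria in the cytosol, rose 1.81-fold (edgeR adjusted p = 3.66e-05), Trim21 1.37-fold and the autophagy adaptor Sqstm1 1.11-fold. Gabarap, whose ubiquitin-like family places IRGs and GBPs on the vacuole, fell to 79.4 ± 2.42 FPKM in extract libraries, against 96.4 ± 3.05 FPKM in control libraries. Ulk1 and Ubb fell by 0.33 and 0.27 on the log2 scale. Casp1, the inflammasome protease, fell to 1.01 ± 0.0717 FPKM in extract libraries, against 1.85 ± 0.245 FPKM in control libraries. Atg5, which IRG loading needs in mouse cells, read 14.0 ± 0.175 FPKM in extract and 14.6 ± 0.707 FPKM in control. Of 14 dynamin-like genes outside the interferon families, 4 rose and 3 fell, and the largest rise was 1.46-fold, in Mfn2.

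Marker transcripts of several cell types moved with the groups. Over all genes tested, 12.8% were called lower and 14.2% higher. Markers of T and NK cells, the main makers of interferon gamma, summed to 7.60 to 8.92 FPKM in extract libraries and 14.3 to 15.6 FPKM in control libraries, and 7 of 18 fell. Kupffer cell markers summed to 322 to 338 FPKM in extract libraries and 526 to 550 FPKM in control libraries, with 11 of 14 lower. Monocyte and neutrophil markers (9 of 12 lower) ran from 11.6 to 15.1 FPKM in extract and from 58.4 to 117 FPKM in control. Those of B and plasma cells (6 of 10 lower) ran from 37.8 to 47.6 FPKM in extract and from 87.6 to 149 FPKM in control. Dendritic cell markers other than Bst2, which is also a type I target, ran from 1.64 to 2.12 FPKM in extract and from 3.01 to 4.03 FPKM in control. Red cell markers (7 of 7 lower) ran from 198 to 236 FPKM in extract and from 1272 to 1617 FPKM in control. Markers of sinusoidal endothelium (6 of 13 lower) ran from 54.7 to 57.7 FPKM in extract and from 68.2 to 76.2 FPKM in control. Stellate cell markers (2 of 10 higher, 1 lower) overlapped, from 80.2 to 87.2 FPKM in extract and from 79.9 to 101 FPKM in control. The sum of hepatocyte markers also overlapped, at 50526 to 51282 FPKM in extract and 49938 to 59829 FPKM in control, while of the 12 genes 6 rose and 3 fell, with a median log2 fold change of 0.16. No listed marker was at 0 in all libraries of a group. The 8 GTPases were thus higher in the libraries where every leukocyte list but that with Bst2 was lower, and the part of these cell types in the values of the GTPases and of the interferon gamma targets was not tested.

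The libraries held 52941399 to 56603387 estimated counts with the extract and 51219533 to 61432016 in control. In the whole table edgeR called 2561 genes higher and 2309 lower, so that 52.6% of calls were higher. With limma on log2(FPKM + 0.5) the counts were 1872 higher and 2822 lower (39.9% higher), and 51.3% were higher once the FPKM values were rescaled with TMM factors. The same 8 GTPases, from a list made with this comparison known, were higher in sign under each of these.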

How the data were processed

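Per the labels' protocols, RNA of mouse liver was captured on oligo(dT) beads. Tools in the submitters' processing notes are StringTie 1.3.4d, HISAT2 2.0.4, edgeR and cutadapt 1.9, each without a role. Genome build and use of strand are not given in the sources used here. Gene coordinates are those of the deposited table, and for the 10 genes they lie within 2 bases of GENCODE M21 on GRCm38. Per the file headers the deposited table holds, for each library, estimated counts, which are whole numbers and were used as they stand, and FPKM, made by the authors. Another 6 per-sample columns match no sample and were not used.

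The test on counts was the quasi-likelihood test of edgeR 4.0.16 (R 4.3.3; filterByExpr, TMM, two-sided, Benjamini-Hochberg over 18071 genes, threshold 0.05), with 3 libraries against 3 and no covariate. Standard errors were derived from fold changes and F statistics. Alternatives were DESeq2 1.42.0, RLE factors, no filter, counts divided by 4, limma 3.58.1 on log2(FPKM + 0.5) with other pseudocounts (0.1 and 1), filter and scaling, the replicate number as a block, and each library left out. The steps were tested on simulated data.

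The genes and lists were chosen with earlier results of these data known. Named genes are all 10 GTPases, every tested ligand, receptor, kinase and transcription factor gene, up to 6 genes past the threshold with the smallest p from each other list, and the 6 genes outside the lists with the most similar pattern (mean of at least 5 FPKM). Genes that complete a count of 5 or fewer, copies that share reads, and Socs1 and Atg5 were named after their values were seen. Shared sequence was measured as the share of a gene's 100-base transcript windows found in another gene. A planned search of protein motifs was not run, and some listed genes are counted but not reported here by name.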

Additional observations from a re-analysis of the deposited data

How the results depend on the processing

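Under the 16 alternatives planned for each, the 10 GTPases kept the sign of their log2 fold change and 8 of 10 were called. The values ran from 2.25 to 2.84 for Gbp11, from 1.02 to 1.29 for Gbp3, from 0.30 to 0.39 for Igtp, from -0.22 to -0.07 for Gbp2 and from -0.32 to -0.05 for Tgtp1. In the main fit 14.2% of all genes tested were called higher. Since the list was made with this comparison known, nothing is read from the calls of its genes. With the near-identical copies summed, an alternative added after the data were seen, Tgtp1 turned to 0.48. That fit counts reads of Tgtp2 with it. Over all genes, leaving out 1 library gave 3237 to 4706 calls, 1776 to 2553 higher and 1442 to 2153 lower, against 4870, 2561 and 2309 with all 6. The smallest total, 3237, was without extract 2. Lower calls were 1461 there, 1480 with extract 1 left out and 1442 with control 2 left out, each with fewer samples in the fit. limma on FPKM with no filter on low values gave 1485 higher, and the cause was not tested. No pairing by replicate number was visible. Deviations of same-numbered libraries correlated at -0.117, -0.0282 and -0.0895, and those of different numbers at -0.0694 to 0.153. These values cannot show whether the libraries were paired by design. With the replicate number as a block, 2044 genes were higher and 1702 lower, 3746 in all. Across all settings the type I targets had 16 to 20 rises and the interferon gamma targets 1 to 3 rises and 7 to 10 falls. Kinases and transcription factors had 2 to 4 rises and 1 to 2 falls, while ligands had 0 to 2 falls and receptors 0 to 1 rises and 0 to 2 falls. Low counts limit Ifng. Shared reads limit Tgtp1 and Gbp6 most, with their copies Tgtp2 and Gbp10, and Gbp7, Igtp and Irgm2 over shorter stretches.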
